A study of Mus musculus with 6 samples.

Results

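The decision of a cell to copy its DNA is taken in the G1 phase of the cell cycle. D-type cyclins bind the kinases *Cdk4* and *Cdk6*, and the active complexes phosphorylate the retinoblastoma protein encoded by *Rb1*, which otherwise holds E2F transcription factors in check. Inhibitors of the INK4 family, here *Cdkn2c* and *Cdkn2d*, bind the kinases themselves, whereas *Cdkn1b* (p27) binds cyclin and kinase complexes. *E2f4* is an E2F factor best known as a repressor in resting cells, and both *Rb1* and *E2f4* are needed for normal red cell production in mice.

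The genes described here are 10 core members of this machinery, taken by name for their role, with earlier results of these data known: *Ccnd1*, *Ccnd2*, *Ccnd3*, *Cdk4*, *Cdk6*, *Rb1*, *Cdkn1b*, *Cdkn2c*, *Cdkn2d* and *E2f4*. They are 10 of the 39179 genes listed in the count files, and all 10 passed the filter on low counts that left 15980 genes for testing. Their expression was measured by RNA-seq of whole bone marrow from 3 *MxCDX2* mice and 3 control littermates. *MxCDX2* mice (genotype *RsCDX2::Mx1Cre*) carry the human *CDX2* coding sequence behind a loxP-flanked stop in the *Rosa26* locus, together with Cre recombinase under the interferon-inducible *Mx1* promoter, which is not restricted to blood cells. The controls were 1 *RsCDX2* mouse, 1 *Mx1Cre* mouse and 1 wild-type mouse, so each control genotype is represented by a single animal. All 6 mice, controls included, received 3 intraperitoneal injections of the interferon inducer poly(I:C) at 10 µg per g at 3 months of age, and RNA was prepared 6 weeks later.

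The libraries held between 38646101 and 49899650 reads counted on genes. Markers of red cells, neutrophils and B cells were detected in all 6 mice, as befits bone marrow, and no marker gene was at 0 in every mouse. The marrows differed in composition. The summed erythroid markers lay between 558741 and 681366 normalized counts in controls and between 20452 and 91437 in *MxCDX2* mice, and 10 of 10 markers fell. The summed monocyte markers lay between 32164 and 42205 in controls and between 196031 and 265545 in *MxCDX2* mice, with 5 of 8 higher and 1 lower. Neutrophil marker sums were 1862322 to 3059991 in controls and 895629 to 1188887 in *MxCDX2* mice (5 of 10 lower), and B lymphoid sums were 19598 to 58698 and 4781 to 16860 (4 of 9 lower). In whole marrow, fewer cells of a type and less RNA per cell cannot be told apart, and the part of these shifts in the results below was not tested. The wild-type control stood apart in megakaryocyte markers, with a sum of 186259 against 19148 and 21126 in the other control mice. It was also the highest control in stem and progenitor markers (19988 against 7561 and 8261) and in stroma and endothelium markers (59352 against 17353 and 33530). In the erythroid, monocyte, neutrophil and B lymphoid sums it was the lowest control. Among the genes described here it was the highest control in *Ccnd1*, *Ccnd2*, *Cdk4*, *Cdk6* and *Cdkn2d*. It was the lowest in *Ccnd3*, *Rb1*, *Cdkn1b*, *Cdkn2c* and *E2f4*. Results are therefore also given without it.

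Several of these genes were expressed at a lower level in *MxCDX2* marrow, and *Cdk6* at a higher level. Of the 10 genes, 5 fell (*Ccnd1*, *Ccnd3*, *Rb1*, *Cdkn2d* and *E2f4*) and 1 rose (*Cdk6*) at an adjusted p below 0.05 in the quasi-likelihood test of edgeR, adjusted over all tested genes by the Benjamini-Hochberg method. Among all tested genes 21.7% passed the same threshold, 11.8% lower and 9.91% higher. With an absolute log2 fold change above 1 as well, 4 of the 10 were called (*Ccnd1*, *Rb1*, *E2f4* and *Cdk6*), against 13.6% of all tested genes. In 7 of the 10 the values of the groups did not overlap, as was the case for 42.1% of all tested genes. The median log2 fold change of the 10 genes was -0.61, and that of all tested genes was 0.00. Since the genes were not chosen blind to these data, the shares are a description of the set.

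**Figure D1:**
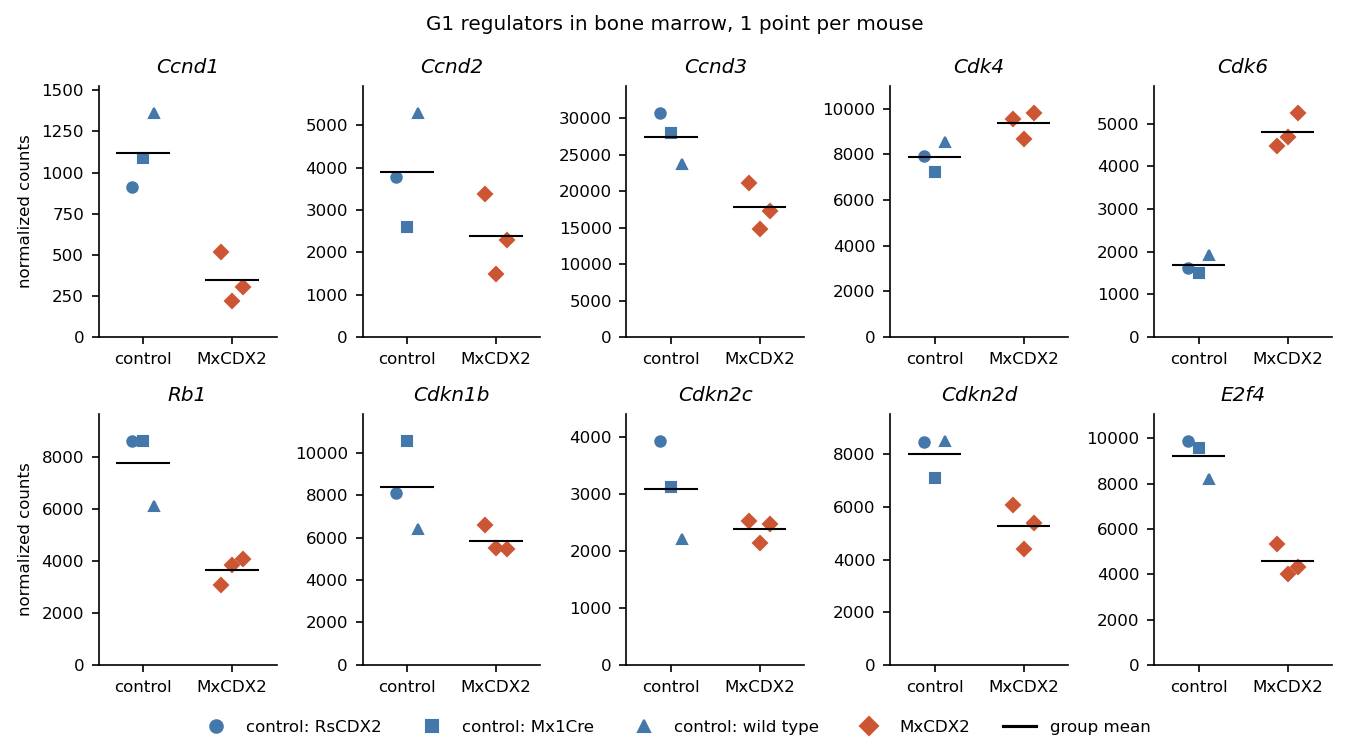
Normalized counts (vertical axes, from 0) of the 10 genes in each control mouse (blue, shaped by genotype) and each *MxCDX2* mouse (orange diamonds), with lines at the group means. *Cdk6* is higher in every *MxCDX2* mouse than in any control, at 4482 to 5252 against 1509 to 1933, while *Ccnd1*, *Ccnd3*, *Rb1*, *Cdkn2d* and *E2f4* lie below every control.

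Of the D cyclins, which carry growth signals to the kinases, *Ccnd1* and *Ccnd3* fell and *Ccnd2* did not pass the test. *Ccnd1* had 913.7, 1087 and 1362 normalized counts in the *RsCDX2*, *Mx1Cre* and wild-type controls, and 519.1, 221.4 and 303.8 in *MxCDX2* mice 1, 2 and 3. Every *MxCDX2* mouse was below every control, and mouse 2 was the lowest. *Ccnd1* fell by 1.69 on the log2 scale (SE 0.34, n = 3 mice per group, edgeR adjusted p = 0.0161), the largest fall among the 10 genes, but without *MxCDX2* mouse 3 the adjusted p was 0.0724 at a log2 fold change of -1.59. *Ccnd3*, a cyclin that developing red cells use to set their number of divisions, had 30740, 27996 and 23675 normalized counts in controls and 21177, 14815 and 17336 in *MxCDX2* mice. Its groups did not overlap either, and it fell by 0.63 on the log2 scale (SE 0.18, n = 3 mice per group, edgeR adjusted p = 0.0473). That call rests near the threshold. It was lost without control *RsCDX2* (adjusted p = 0.123), control *Mx1Cre* (0.107), *MxCDX2* mouse 2 (0.134) or *MxCDX2* mouse 3 (0.161), and when every gene with at least 1 count was tested (0.0551).

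*Ccnd2*, the third D cyclin, varied widely between mice of the same group. It had 3776, 2597 and 5294 normalized counts in controls and 3383, 1491 and 2300 in *MxCDX2* mice, so the highest *MxCDX2* mouse exceeded the lowest control. The difference did not pass the test (log2 fold change -0.70, SE 0.36, n = 3 mice per group, edgeR adjusted p = 0.208).

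Set on a common scale, as normalized counts per kilobase of exon, *Ccnd3* made up most of the D cyclin RNA in every mouse. The 3 cyclins together came to 3782 ± 283.9 per kilobase (SD, n = 3) in controls and 2354 ± 498.3 in *MxCDX2* mice, a ratio of 0.622. *Ccnd1* supplied 4.73%, 6.25% and 8.15% of that sum in the controls and 3.82%, 2.48% and 2.82% in *MxCDX2* mice. Its share was thus lower in every *MxCDX2* mouse, which gave the smallest two-sided p that an exact permutation test of 3 mice against 3 can give, 0.10 (0.25 after Benjamini-Hochberg adjustment over 5 such tests). The share of *Ccnd3* was 82.6% ± 5.72 in controls and 86.4% ± 2.72 in *MxCDX2* mice (exact permutation p = 0.4, adjusted 0.67), and that of *Ccnd2* was 11.0% ± 4.33 and 10.5% ± 2.06 (exact permutation p = 0.9). The difference in *Ccnd3* share, 3.85 percentage points, was 0.561 without the wild-type control and 2.5 without *MxCDX2* mouse 2. Taken from raw counts with no allowance for length, the difference in *Ccnd1* share was -1.86 percentage points in place of -3.33. The direction of the *Ccnd2* share turned when the wild-type control or *MxCDX2* mouse 2 was left out.

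**Figure D2:**
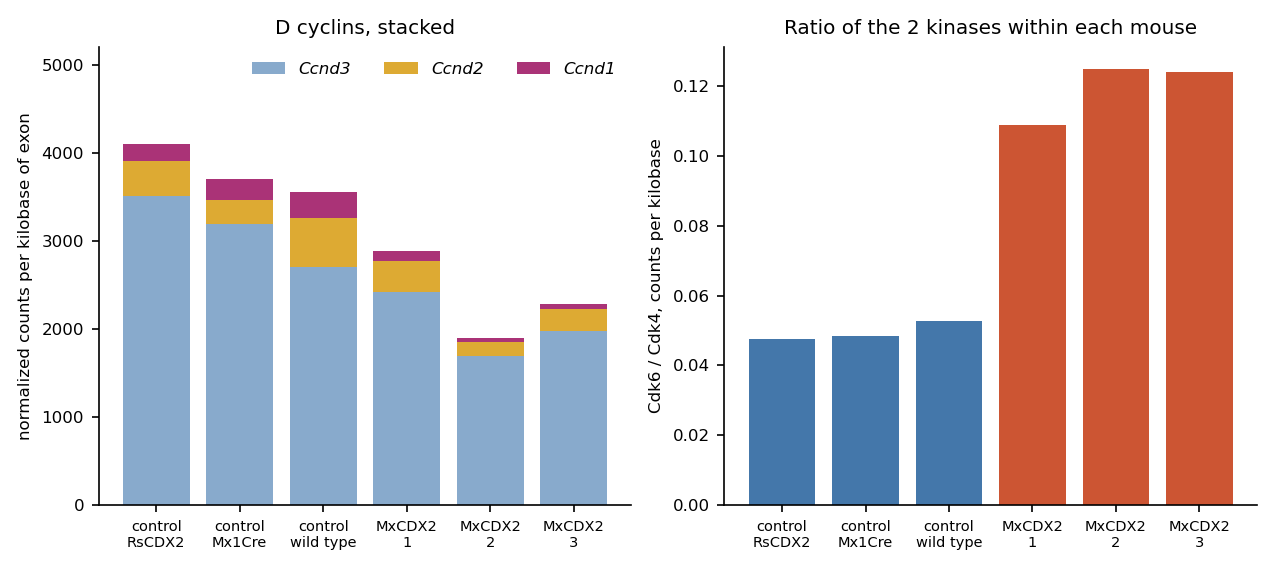
Left, *Ccnd3*, *Ccnd2* and *Ccnd1* stacked as normalized counts per kilobase of exon in each mouse. Right, the ratio of *Cdk6* to *Cdk4* per kilobase, between 0.0477 and 0.0527 in controls (blue) and between 0.109 and 0.125 in *MxCDX2* mice (orange).

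Of the kinases that these cyclins activate, *Cdk6* rose and *Cdk4* did not pass the test. *Cdk6*, the partner kinase prominent in early blood progenitors and in several leukemias, had 1625, 1509 and 1933 normalized counts in controls and 4482, 4684 and 5252 in *MxCDX2* mice. All 3 *MxCDX2* mice stood well above all controls and close to each other. *Cdk6* rose 2.84-fold (log2 fold change 1.51, SE 0.13, n = 3 mice per group, edgeR adjusted p = 0.00159). *Cdk4*, its widely expressed relative, had 7922, 7234 and 8516 normalized counts in controls and 9563, 8690 and 9810 in *MxCDX2* mice. These groups did not overlap, but the difference was small and did not pass the test (log2 fold change 0.25, SE 0.11, n = 3 mice per group, edgeR adjusted p = 0.15). Per kilobase, *Cdk4* was the more abundant kinase in every mouse. The log2 ratio of *Cdk6* to *Cdk4* was -4.33 ± 0.0779 (SD, n = 3) in controls and -3.07 ± 0.114 in *MxCDX2* mice, a difference of 1.27 with no overlap (exact permutation p = 0.10, the smallest possible, and 0.25 adjusted over 5 tests). Summed, the kinases came to 2549 ± 212.5 per kilobase in controls and 3223 ± 195.9 in *MxCDX2* mice, a ratio of 1.26.

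Because the ratio of these kinases did not overlap between the groups, the sequence just before each of their start sites is shown, from RefSeq on GRCm38.p6, as the stretch of the 250 bases before the start that lies outside every annotated exon. Both read 5′ to 3′ on the plus strand, at chr10:127063285-127063533 for *Cdk4* and chr5:3343789-3343892 for *Cdk6*. The *Cdk4* stretch ends just before the start of the gene in GENCODE (127063534). That of *Cdk6* lies inside the gene, which begins at 3341485 in GENCODE, so the RefSeq start used for *Cdk6* is an internal one. Capitals mark CACGTG (an E-box) in *Cdk4* and TATAAA, the reverse complement of TTTATA, in *Cdk6*.
Cdk4: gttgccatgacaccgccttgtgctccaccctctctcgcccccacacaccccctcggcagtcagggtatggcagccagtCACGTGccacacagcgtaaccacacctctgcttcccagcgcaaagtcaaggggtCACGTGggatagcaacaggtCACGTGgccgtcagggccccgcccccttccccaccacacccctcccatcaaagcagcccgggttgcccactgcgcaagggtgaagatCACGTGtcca
Cdk6: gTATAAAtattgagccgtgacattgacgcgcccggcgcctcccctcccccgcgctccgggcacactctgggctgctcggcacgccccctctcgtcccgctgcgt
The words marked were picked after these sequences had been read, so their presence is a description only. The first search, on both strands of the 8 windows found for 6 of the 10 genes (*Ccnd3*, *Cdk4*, *Cdk6*, *Cdkn1b*, *Cdkn2c* and *Cdkn2d*), matched in 0 windows. It covered E2F words (TTTGGCGC, TTTCCCGC, TTTCGCGC), the CDX words TTTATG and TTTATT but not TTTATA, the GATA word AGATAA and the E-box CAGGTG. Of all 32851 promoter windows of that length, 1.53%, 25.5%, 9.99% and 17.2% hold these. CACGTG, found in 6.02% of all windows, then matched at 172, 118, 98 and 11 bases before the start of *Cdk4* and at 220 bases before that of *Cdk6*, outside the stretch shown. TTTATA, found in 12.4% of all windows, matched at 103 bases before the start of *Cdk6*. It differs from the CDX words of the first search only in its last base, so that search could not match it. Its reverse complement is also the TATA-box word.

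Among the inhibitors, *Cdkn2d* (p19) was the one that fell. It had 8449, 7076 and 8512 normalized counts in controls and 6079, 4394 and 5375 in *MxCDX2* mice, without overlap. It fell by 0.60 on the log2 scale (SE 0.15, n = 3 mice per group, edgeR adjusted p = 0.0315), and this call was lost without control *RsCDX2* (adjusted p = 0.0851), *MxCDX2* mouse 2 (0.0815) or *MxCDX2* mouse 3 (0.108). *Cdkn2c* (p18), the other INK4 member, had 3941, 3121 and 2211 normalized counts in controls and 2530, 2141 and 2471 in *MxCDX2* mice. The wild-type control lay inside the *MxCDX2* range, and the difference did not pass the test (log2 fold change -0.38, SE 0.21, n = 3 mice per group, edgeR adjusted p = 0.25). *Cdkn1b* had 8102, 10561 and 6413 normalized counts in controls and 6578, 5503 and 5475 in *MxCDX2* mice. Here too the wild-type control overlapped with the *MxCDX2* mice, and the log2 fold change of -0.51 (SE 0.19, n = 3 mice per group) did not pass the test (edgeR adjusted p = 0.105). Per kilobase, *Cdkn2c* and *Cdkn2d* summed to 6241 ± 589.0 (SD, n = 3) in controls and 4242 ± 613.1 in *MxCDX2* mice, a ratio of 0.68. The log2 ratio of *Cdkn2d* to *Cdkn2c* was 2.18 ± 0.466 in controls and 1.91 ± 0.115 in *MxCDX2* mice, with overlap (exact permutation p = 0.6, adjusted 0.75).

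At the end of the pathway, *Rb1*, the brake that the kinases release, had 8617, 8647 and 6110 normalized counts in controls and 3071, 3843 and 4077 in *MxCDX2* mice. Every *MxCDX2* mouse was below the lowest control, the wild-type mouse. *Rb1* fell by 1.09 on the log2 scale (SE 0.18, n = 3 mice per group, edgeR adjusted p = 0.00815). *E2f4* had 9895, 9554 and 8191 normalized counts in controls and 5355, 4020 and 4333 in *MxCDX2* mice, again without overlap. It fell by 1.01 on the log2 scale (SE 0.14, n = 3 mice per group, edgeR adjusted p = 0.00507), which places it at the edge of the fold threshold. *Cdk6*, *Rb1* and *E2f4* passed the adjusted p in 6 of 6 fits that each left out 1 mouse, but *Rb1* and *E2f4* did not always keep an absolute log2 fold change above 1. *Rb1* lost that call in separate fits: with scaling by total counts only (-0.96), without *MxCDX2* mouse 1 (-0.97) and, at a value just short of the threshold, without control *RsCDX2*. *E2f4* lost it with total counts only (-0.89), with every gene with at least 1 count tested (-0.98), and without control *RsCDX2* (-0.94), control *Mx1Cre* (-0.98), *MxCDX2* mouse 2 (-0.92) or *MxCDX2* mouse 3 (-0.97).

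Without the wild-type control, 9 of the 10 genes passed the adjusted p, all but *Ccnd2* (edgeR adjusted p = 0.439), and 4 were called. Among all genes tested in that fit 27% passed and 14.9% were called. The genes that passed in addition were *Cdk4* (log2 fold change 0.32, edgeR adjusted p = 0.0484), *Cdkn1b* (-0.66, 0.0259) and *Cdkn2c* (-0.55, 0.0284). No gene changed direction.

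**Figure D3:**
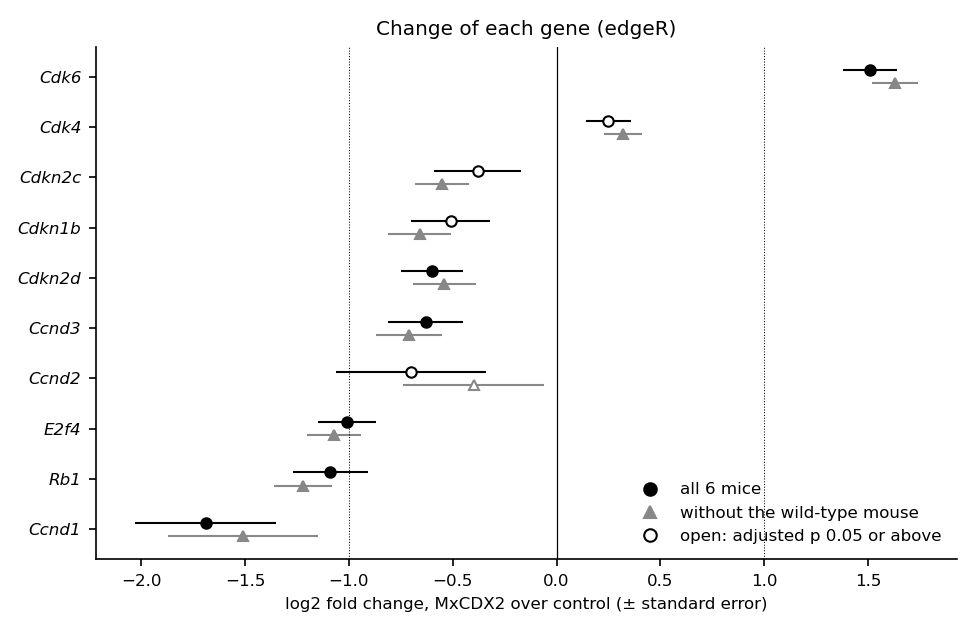
Log2 fold change of each gene in *MxCDX2* over control marrow (horizontal axis, bars are standard errors) with all 6 mice (black circles) and without the wild-type control (grey triangles), with open symbols at an adjusted p of 0.05 or above. *Cdk6* lies at 1.51 and 1.63, and *Ccnd1* at -1.69 and -1.51.

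The order of the genes by level per kilobase also differed between groups. In controls *Cdkn2d* was the highest (5090 ± 515.6 normalized counts per kilobase, SD, n = 3), followed by *E2f4* (3757 ± 367.8), *Ccnd3* (3131 ± 405.9), *Cdk4* (2429 ± 197.5), *Cdkn1b* (1836 ± 458.3), *Rb1* (1295 ± 242.0), *Cdkn2c* (1151 ± 322.2), *Ccnd2* (413.3 ± 143.7), *Ccnd1* (238.1 ± 48.0) and *Cdk6* (120.8 ± 15.6). The ranges of neighbours over the control mice overlapped except between *Cdkn2d* and *E2f4*, *Ccnd3* and *Cdk4*, *Cdkn2c* and *Ccnd2*, and *Ccnd1* and *Cdk6*. In *MxCDX2* mice *Cdkn2d* was still the highest (3356 ± 537.9), now with *Cdk4* next (2879 ± 181.1) and overlapping it. *Ccnd3* (2026 ± 365.1) and *E2f4* (1863 ± 284.8) overlapped each other, and *Cdkn1b* (1286 ± 138.2), *Cdkn2c* (886.2 ± 78.1) and *Rb1* (609.1 ± 87.5) followed without overlap. *Cdk6* (343.5 ± 28.5) had moved from the last place to the eighth, in overlap with *Ccnd2* (254.2 ± 100.9), and *Ccnd1* (73.9 ± 32.6) was the lowest. Exon lengths were those of all annotated exons of a gene, so these levels do not allow for which transcripts were in use.

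Within the *MxCDX2* group the mice differed in erythroid marker level, at 14.3%, 3.2% and 7.0% of the control mean in mice 1, 2 and 3. The same order, mouse 1 above mouse 3 above mouse 2, was seen in 6 of the 10 genes (*Ccnd1*, *Ccnd2*, *Ccnd3*, *Cdkn2c*, *Cdkn2d* and *E2f4*) and in 26.0% of all tested genes. *Ccnd1*, for instance, stood at 46.3%, 19.8% and 27.1% of its control mean. *Rb1* stood at 39.4%, 49.3% and 52.3%, lowest in the mouse with the most erythroid marker RNA, and *Cdk6* at 265.0%, 277.0% and 311.0%. The B lymphoid sum followed the erythroid order (43.2%, 12.3% and 29.9%) and the monocyte sum ran against it (506.0%, 685.0% and 610.0%). This order was looked at after the values were known, and the part of cell composition in it was not tested. *MxCDX2* mouse 2 also had the largest share of reads on no gene, 14.06% against 9.85% and 9.31% in mice 1 and 3. The part of that difference in the order was not tested either.

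**Figure D4:**
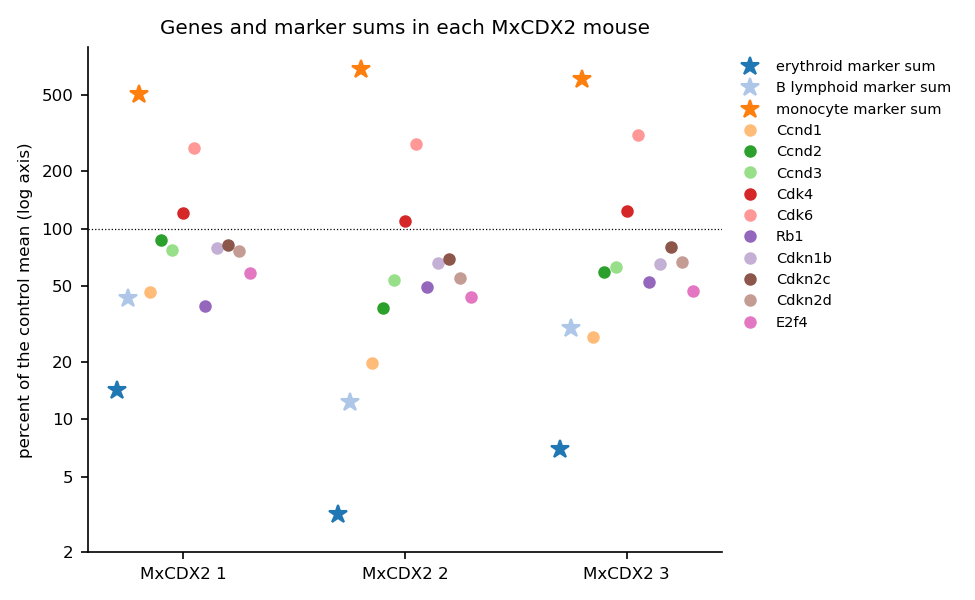
Level of each gene (circles) and of the summed erythroid, B lymphoid and monocyte markers (stars) in each *MxCDX2* mouse, as percent of the control mean on a log axis with a dotted line at the control mean. *MxCDX2* mouse 2 has the lowest erythroid sum (3.2%) and the lowest *Ccnd1* (19.8%).

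Other regulators of the same G1 step were mostly not past the threshold. Of 32 further G1 genes, 3 rose and 4 fell, 4 of these 7 were called, and the median log2 fold change was -0.08. These shares are near those of all tested genes, of which 21.7% passed and 13.6% were called. The genes that rose were inhibitors or a pocket protein: *Cdkn2b*, an INK4 inhibitor (log2 fold change 2.5, edgeR adjusted p = 0.0242), *Cdkn1c*, a relative of *Cdkn1b* (2.08, 0.0301), and *Rbl2*, a relative of *Rb1* (0.31, 0.0384). *Cdkn2b* was scarce, at 7.67, 6.95 and 13.7 normalized counts in controls and 29.7, 40.2 and 93.1 in *MxCDX2* mice. *Cdkn1c* had 92.0, 63.5 and 124.9 in controls and 505.3, 160.7 and 521.4 in *MxCDX2* mice. The genes that fell were *Tfdp2*, a DNA-binding partner of E2F factors (-2.46, 0.00318), *Ccne1*, the cyclin that acts after the D cyclins (-1.55, 0.00695), the activating factor *E2f2* (-0.79, 0.0184) and *Ccna2*, an S-phase cyclin (-0.66, 0.036). *Ccna2* was named after its value was seen. *Tfdp2* was the most changed of them, with 17746, 17939 and 12858 normalized counts in controls and 4163, 1996 and 2668 in *MxCDX2* mice. Without the wild-type control 15 of the 32 passed, beside 27% of all genes tested in that fit.

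Of 24 genes of DNA replication that E2F factors are known to drive, 4 fell and 0 rose in edgeR's test, beside 11.8% lower and 9.91% higher among all tested genes, and the median log2 fold change was -0.19. The smallest adjusted p-values were those of *Orc1*, a subunit of the origin recognition complex (log2 fold change -1.34, edgeR adjusted p = 0.00323), *Rrm2*, a ribonucleotide reductase subunit (-1.09, 0.0123), and *Cdc6*, a loader of the replicative helicase (-0.91, 0.0181). *Orc1* had 1199, 1115 and 888.9 normalized counts in controls and 419.5, 424.2 and 421.3 in *MxCDX2* mice. The fourth, named after its value was seen, was *Mcm2*, a subunit of that helicase (-0.46, 0.0404). Without the wild-type control 11 of the 24 passed, all of them lower. Of the 16179 genes tested in that fit, 2241 passed as lower and 2120 as higher, 27% in either direction.

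**Figure D5:**
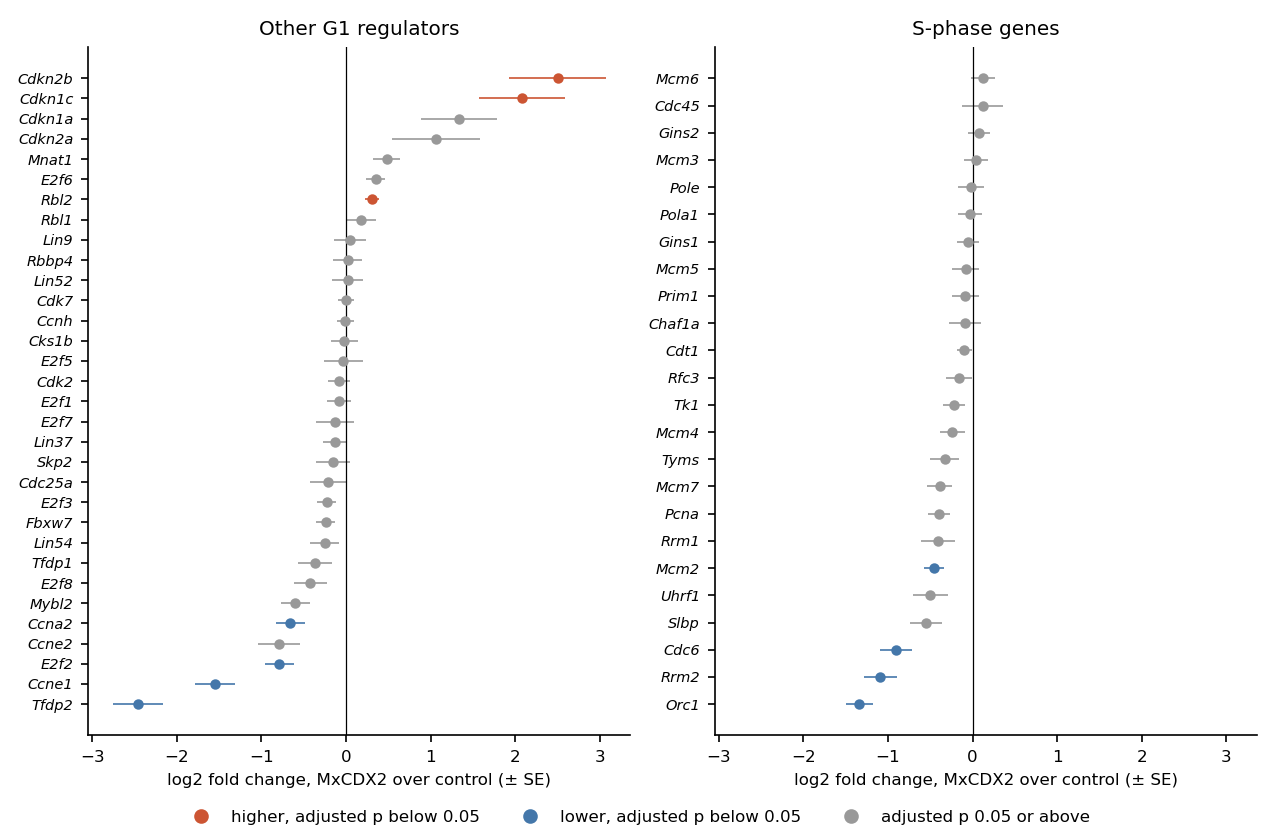
Log2 fold change (horizontal axis, bars are standard errors) of 32 further G1 genes and 24 S-phase genes, with genes that passed the adjusted p in orange (higher) and blue (lower) and the rest in grey. *Cdkn2b* (2.5) and *Cdkn1c* (2.08) stand at the upper end and *Tfdp2* (-2.46) at the lower end.

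By the GENCODE M21 annotation of GRCm38, *Ccnd1* lies at chr7:144929931-144939925, *Ccnd3* at chr17:47505051-47599691, *Cdk6* at chr5:3341485-3531008, *Rb1* at chr14:73183673-73325822 and *E2f4* at chr8:105297663-105305370. Exons of *Ccnd1*, *Ccnd2*, *Ccnd3*, *Cdk4*, *Cdk6* and *Rb1* overlap exons of a gene on the other strand. The library kit kept the strand, but the strand setting of the counting is not given in the sources used here, so part of those counts could have come from, or been lost to, the partner. The partner *Tspan31* shares 641 exon bases with *Cdk4* and rose from 874.1, 760.6 and 1007 to 1914, 1750 and 1872 normalized counts (log2 fold change 1.07, edgeR adjusted p = 0.00402). *LTO1*, which shares 1100 exon bases with *Ccnd1*, had a log2 fold change of 0.05 (adjusted p = 0.803). *Lpar6*, which shares 408 with *Rb1*, had 780.8, 1092 and 744.8 normalized counts in controls and 931.1, 2434 and 1658 in *MxCDX2* mice (0.94, edgeR adjusted p = 0.104). *Rcbtb2*, which shares 488 with *Rb1*, stood at -0.04 (0.914), and *Bysl*, which shares 361 with *Ccnd3*, at -0.23 (0.317). The partners of *Ccnd2* and *Cdk6* have no test result. *Cdkn1b*, *Cdkn2c*, *Cdkn2d* and *E2f4* have no such overlap.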

How the data were processed

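Marrow RNA of each mouse was sequenced from a stranded mRNA library. The authors aligned the reads with STAR 2.5 to GRCm38 and used HTSeq 0.6.1 to count reads on genes, and the deposited values are these raw counts, without normalization. HTSeq's rows for reads on no gene (9.22 to 14.06%, highest in *MxCDX2* mouse 2) and for ambiguous reads (2.99 to 3.16%) were left out.

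Counts were analysed with edgeR 4.0.16 in R 4.3.3 (TMM, default filterByExpr, glmQLFit, glmQLFTest), with Benjamini-Hochberg adjustment over the 15980 genes tested. Normalized counts are counts scaled to the mean TMM library size. Standard errors come from the F statistic. Within-mouse ratios were compared by exact permutation over mice, two-sided, which cannot give p below 0.10 with 3 against 3. The mice are separate animals. Alternatives were DESeq2 1.42.0, limma 3.58.1 (voom), other scalings and filters, a replicate block and each mouse left out. The omission of the wild-type mouse from the counts over all genes, the sums per kilobase and the order of *MxCDX2* mice were added after seeing the data.

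The fit was checked on simulated counts. A first simulation with smaller changes missed the recovery set for it, and both the size of the changes and the recovery required were then altered, with the fitting code left as it was. The fit then met the altered requirement narrowly, with false calls just under the limit, and missed many of the smaller changes, so a small difference that did not pass is not shown to be absent.

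The genes and lists were chosen with earlier results of these data known, and 1 gene of the S-phase list is not reported here and was left out of its counts. Named were all 10 genes and, from each further list, the 3 smallest adjusted p-values in each direction past 0.05. Promoter words were searched in RefSeq windows of 250 bases before the start, and TTTATA and CACGTG were added after a first set of words had matched nothing.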

Additional observations from a re-analysis of the deposited data

How the results depend on the processing

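No member changed direction in any of the 14 alternative fits. The number past the adjusted p was 6 in 7 of the 8 fits that kept all mice, 5 when every gene with at least 1 count was tested, and 3 to 9 when 1 mouse was left out, lowest without *MxCDX2* mouse 3. The number called was 2 with total counts only, a scaling that moved the median log2 fold change of all genes to 0.118, and 2 to 4 with 1 mouse left out, lowest without control *RsCDX2* or *MxCDX2* mouse 3. Of the further G1 genes, 11 passed with DESeq2 and 2 to 15 with 1 mouse left out, and 2 to 5 were called. Of the S-phase genes, 3 passed when every gene with at least 1 count was tested, 3 with the replicate block and 1 to 11 with 1 mouse left out, highest in both lists without the wild-type control. The cause of these shifts was not tested. With 1 mouse left out, the difference in *Ccnd2* share ranged from -2.31 to 1.89 percentage points, above 0 without the wild-type control (1.89) and without *MxCDX2* mouse 2 (0.55), and that in the log2 ratio of *Cdkn2d* to *Cdkn2c* ranged from -0.422 to 0.00065, above 0 without the wild-type control. The control numbers are only sample order, so the replicate block pairs no mice by design. Deviations of same-numbered mice correlated at 0.169, 0.286 and 0.182, each mouse best with its own number. Deviations from a group mean depend on each other within the group, so these correlations cannot show a pairing. With the block 6 members passed. Over the same fits the difference in *Ccnd3* share ranged from 0.561 to 5.71 percentage points. Whether depth or the spread between mice limits these calls was not tested.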
